A study of Mus musculus with 7 samples.

Results

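A set of 284 peaks was found with both GATA2 and its insertion variant 9aa-Ins at positions outside promoters, out of 6254 peaks in the GATA2 list. The members were chosen by overlap and position: each is a GATA2 peak that overlaps a 9aa-Ins peak by at least 1 bp, and its summit (the position of highest read coverage) falls outside every promoter, taken as 2 kb before to 100 bp past a protein-coding transcript start. The GATA2 list had 3260 peaks outside promoters, and 284 of them, 8.71%, overlapped a 9aa-Ins peak, beside 958 of all 6254 peaks (15.3%). The rule fixed these counts, and the other 2976 peaks outside promoters (GATA2-only) and the 674 shared peaks at promoters were used for comparison. The assay was CUT&Tag, in which a transposase brought to a protein by an antibody cuts and tags the DNA next to it. All groups were hi-77-/- cells, HoxB8-immortalized fetal liver hematopoietic progenitors of the mouse that lack the -77 enhancer of Gata2, infected with a retrovirus for GFP and HA-tagged GATA2 or 9aa-Ins and sorted for GFP. Each of the 2 lists merged 2 anti-HA libraries of 1 construct, and the study split the replicates of a condition from 1 pool of cells. The 3 libraries made with anti-GATA2 antibody, and any library of cells without an HA-tagged protein, were not analysed here, so no level of background peaks can be set beside these values.

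GATA2 is a zinc finger transcription factor required for hematopoietic stem and progenitor cells. Its zinc fingers recognize the motif WGATAR, in which A or T comes before the letters GATA and A or G after them, mostly at enhancers in introns and between genes, where GATA factors bind beside ETS, RUNX and basic helix-loop-helix proteins. In 9aa-Ins, amino acids are inserted in the spacer that separates the N-terminal from the C-terminal finger, modelled on a disease mutation.

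The 284 peaks fell into 5 position classes. Of these peaks, 41 lay within 1 kb of a small RNA gene and 14 others within 1 kb of a histone gene. Small RNA genes were those annotated as snRNA, snoRNA, scaRNA, misc_RNA, rRNA or ribozyme, which leaves out miRNA and tRNA genes. Among the remaining peaks, 91 lay over 100 and up to 1000 bp downstream of a protein-coding transcript start, 21 lay within 1 kb of another transcript start, and 117 lay over 1 kb from every transcript start of any biotype. The label of non-promoter peaks thus holds by its rule, but 167 of the 284 had a transcript start, a small RNA gene or a histone gene within 1 kb. The 117 peaks far from starts were 41.2% of the members, beside 77.8% of the GATA2-only peaks outside promoters and 40.4% of all 6254 GATA2 peaks, promoter peaks included. Starts were those of the GENCODE M21 basic set, and with its comprehensive set 21 of the 284 peaks had their summit in a promoter and 15 of the peaks far from starts had a start within 1 kb.

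Sequences are shown for the highest eligible peak of each position class, for the highest eligible peaks far from starts with and without the motif, and for the eligible peak with the highest 9aa-Ins pileup relative to GATA2 among those with the 9aa-Ins summit inside the GATA2 peak. Peaks in repeated sequence, peaks whose window touched an untranslated region and a few others by chromosome were passed over. Each run is the 201 bases centred on the GATA2 summit, 5′ to 3′ on the plus strand of mm10 (GRCm38, RefSeq sequence), and capitals mark WGATAR on either strand, so that TTATCA and TTATCT are TGATAA and AGATAA on the minus strand.
Hdgf, far from starts with the motif, chr3:87901401-87901601: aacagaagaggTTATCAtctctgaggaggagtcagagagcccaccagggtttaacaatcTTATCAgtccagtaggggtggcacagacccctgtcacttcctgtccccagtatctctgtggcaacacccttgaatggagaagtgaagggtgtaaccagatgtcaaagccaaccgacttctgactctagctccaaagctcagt
Ap1m1, far from starts with the motif, chr8:72268450-72268650: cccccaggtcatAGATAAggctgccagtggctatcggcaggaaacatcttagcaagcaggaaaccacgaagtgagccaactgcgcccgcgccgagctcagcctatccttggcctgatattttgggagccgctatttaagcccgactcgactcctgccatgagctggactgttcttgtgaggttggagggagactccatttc
Cebpe, far from starts with the motif, chr14:54705878-54706078: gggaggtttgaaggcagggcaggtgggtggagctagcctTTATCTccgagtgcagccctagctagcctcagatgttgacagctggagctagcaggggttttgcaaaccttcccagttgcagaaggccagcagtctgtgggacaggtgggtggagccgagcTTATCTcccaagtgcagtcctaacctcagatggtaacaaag
Rpp21, far from starts without the motif, chr17:36231365-36231565: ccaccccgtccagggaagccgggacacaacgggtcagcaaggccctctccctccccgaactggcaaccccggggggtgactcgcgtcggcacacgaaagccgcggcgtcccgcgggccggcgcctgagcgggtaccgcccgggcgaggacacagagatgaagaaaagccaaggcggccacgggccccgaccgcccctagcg
Garnl3, downstream of a coding start, chr2:33130740-33130940: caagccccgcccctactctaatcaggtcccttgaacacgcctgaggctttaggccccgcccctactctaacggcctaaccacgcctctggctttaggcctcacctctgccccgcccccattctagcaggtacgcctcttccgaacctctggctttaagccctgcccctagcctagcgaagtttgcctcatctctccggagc
Chd2, near another transcript start, chr7:73558575-73558775: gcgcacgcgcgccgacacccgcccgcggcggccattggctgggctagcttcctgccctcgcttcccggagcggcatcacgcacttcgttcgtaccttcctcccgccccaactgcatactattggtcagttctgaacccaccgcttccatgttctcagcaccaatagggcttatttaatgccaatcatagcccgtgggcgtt
Hist1h1b, histone gene, chr13:21779575-21779775: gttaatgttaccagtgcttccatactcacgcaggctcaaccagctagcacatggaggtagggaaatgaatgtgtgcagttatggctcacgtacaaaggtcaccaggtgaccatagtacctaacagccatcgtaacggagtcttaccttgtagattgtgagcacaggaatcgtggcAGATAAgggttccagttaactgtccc
Rnu2-10, small RNA gene, chr11:101658468-101658668: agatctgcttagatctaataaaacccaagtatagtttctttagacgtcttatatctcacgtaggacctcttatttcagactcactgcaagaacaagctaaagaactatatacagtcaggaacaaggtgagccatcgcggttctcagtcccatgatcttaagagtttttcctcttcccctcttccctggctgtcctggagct
Rnu1a1 in Tex14, highest relative 9aa-Ins pileup with the 9aa-Ins summit inside, chr11:87423002-87423202: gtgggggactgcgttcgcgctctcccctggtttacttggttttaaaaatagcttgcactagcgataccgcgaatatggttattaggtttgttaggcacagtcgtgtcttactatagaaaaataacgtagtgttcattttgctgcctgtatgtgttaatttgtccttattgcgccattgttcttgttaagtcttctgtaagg
The runs at Hdgf and Cebpe hold 2 motifs each, and those at Ap1m1 and Hist1h1b hold 1. The 5 runs at Rpp21, Garnl3, Chd2, Rnu2-10 and Rnu1a1 hold none.

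To determine where the shared peaks differed from the GATA2-only peaks, their positions were compared by Fisher's exact test (two-sided, Benjamini-Hochberg adjustment over 7 features). The peaks come from 1 merged list, so a p-value speaks of the classes of peaks in that list and not of a spread between replicates, and intervals are Wilson 95% intervals that cover counting error only. Of the 284 shared peaks, 41 (14.4%, 10.8 to 19) lay within 1 kb of a small RNA gene, compared with 31 of 2976 GATA2-only peaks (1.04%, exact test, adjusted p = 3.12e-25), 1.34% of the shared peaks at promoters and 1.61% of all GATA2 peaks. The difference from GATA2-only peaks, 13.4 percentage points, was 23 points with promoters of 3 kb to each side and 9 points with starts of every biotype, and passed the test in both. For histone genes, the shares were 14 of 284 (4.93%, 2.96 to 8.1) and 3 of 2976 (0.101%, exact test, adjusted p = 1.01e-12). The shared peaks at promoters had a share of 38 in 674 (5.64%, 4.13 to 7.64), with an overlapping interval, beside 0.911% of all GATA2 peaks. With promoters of 3 kb to each side, the difference from GATA2-only peaks fell from 4.83 to 0.667 percentage points and no longer passed (exact test, adjusted p = 0.0882). A summit over 100 and up to 1000 bp downstream of a coding start was found in 102 shared peaks, 11 of them also near a small RNA or histone gene (35.9%, 30.6 to 41.6), and in 471 GATA2-only peaks (15.8%, exact test, adjusted p = 1.49e-14), beside 22.1% of the shared peaks at promoters and 18.2% of all GATA2 peaks. Exons held 79 shared peaks (27.8%) and 385 GATA2-only peaks (12.9%, exact test, adjusted p = 5.09e-10), beside 26.1% of all 6254 GATA2 peaks and 38.7% of the 674 shared peaks at promoters. The exon difference of 14.9 percentage points was 9.46 with promoters of 3 kb to each side and 19.5 with the comprehensive set.

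CpG content was compared in the same way. A window of 500 bp around the summit met the CpG criteria (GC of at least 50% and an observed to expected CpG ratio of at least 0.6) in 125 of 284 shared peaks (44%, 38.4 to 49.8) and in 522 of 2976 GATA2-only peaks (17.5%, exact test, adjusted p = 6.26e-22). It met them in 50.1% of all 6254 GATA2 peaks and in 602 of the 674 shared peaks at promoters (89.3%), both shares above that of the shared peaks outside promoters. Just downstream of coding starts, 73 of 91 shared peaks were CpG-rich (80.2%, 70.9 to 87.1) and so were 350 of 462 GATA2-only peaks (75.8%, 71.6 to 79.4), with overlapping intervals. Far from starts, the shares were 26 of 117 (22.2%, 15.6 to 30.6) and 113 of 2315 (4.88%, 4.08 to 5.84), and the intervals did not overlap. In this position class the share was 6.68% for all GATA2 peaks and 4 of 13 (30.8%, 12.7 to 57.6) for the shared peaks at promoters. Sequence repeated elsewhere in the genome (at least 50% of the 31-base words around the summit) lay under 16 shared peaks (5.63%) and 17 GATA2-only peaks (0.571%, exact test, adjusted p = 2.55e-09), beside 0.608% of all GATA2 peaks. The difference of 5.06 percentage points was 8.09 with a reciprocal overlap of 50% and 3.02 with 1 peak per 10 kb run. Without the peaks near histone and small RNA genes, this difference fell to 1.17 percentage points (exact test, adjusted p = 0.0839). The intergenic share was 27.5% in the shared peaks and 30.3% in the GATA2-only peaks, and the difference of -2.88 percentage points (95% interval -8.02 to 2.82) did not pass the test (exact test, adjusted p = 0.343). Without the peaks near histone and small RNA genes it was -7.44 points and passed (exact test, adjusted p = 0.0343).

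**Figure D1:**
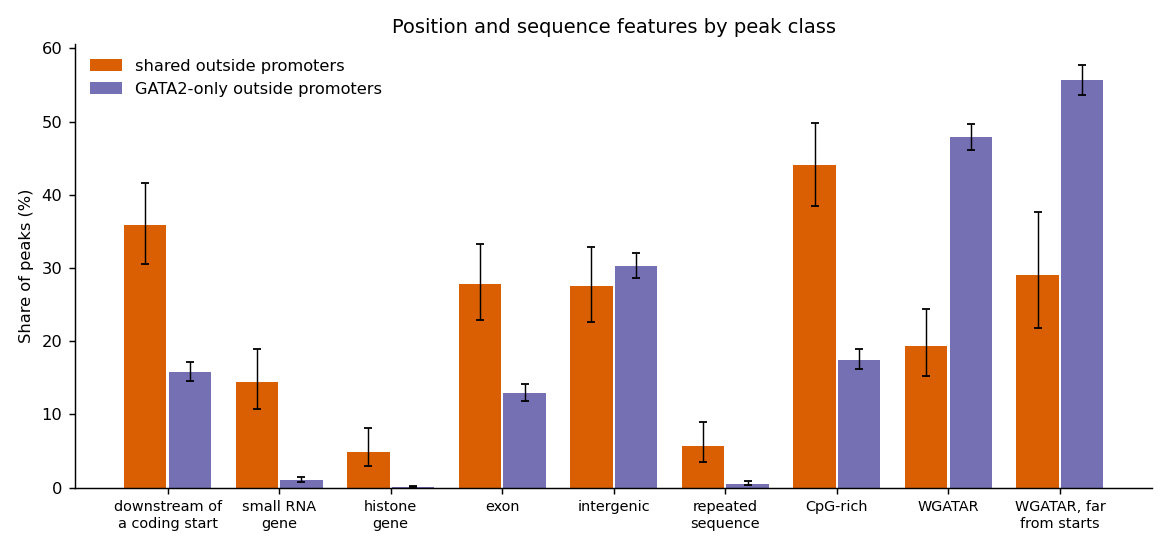
Share of peaks (%) with each position or sequence feature among the 284 shared peaks outside promoters (orange) and the 2976 GATA2-only peaks outside promoters (purple), with Wilson 95% intervals; the last pair of bars is limited to the 124 and 2319 peaks over 1 kb from every transcript start. The shared peaks stand higher than the GATA2-only peaks for starts, small RNA genes, histone genes, exons, repeated sequence and CpG, and lower for WGATAR.

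Seen from the GATA2 list, the part that was shared differed by position. Of the 17 GATA2 peaks outside promoters within 1 kb of a histone gene, 14 were shared (82.4%, 59 to 93.8), and of the 72 near small RNA genes, 41 were shared (56.9%, 45.4 to 67.7). Just downstream of coding starts, 91 of 553 were shared (16.5%, 13.6 to 19.8). Far from starts, 117 of 2432 were shared (4.81%, 4.03 to 5.73). There, 36 of 1326 peaks with WGATAR were shared (2.71%, 1.97 to 3.74), and 81 of 1106 peaks without it (7.32%, 5.93 to 9.01).

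**Figure D2:**
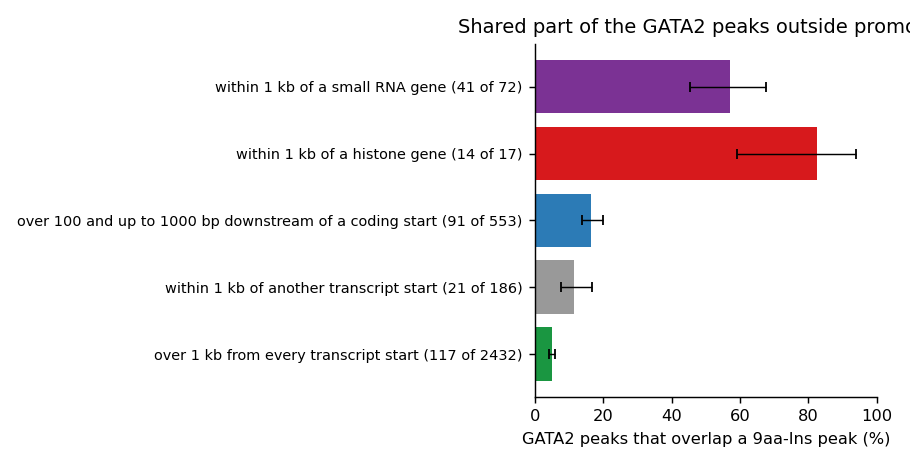
Share (%) of GATA2 peaks outside promoters that overlap a 9aa-Ins peak, by position class, with Wilson 95% intervals and the counts in the labels. The share runs from 4.81% far from every transcript start to 82.4% next to histone genes.

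WGATAR was less frequent at the shared peaks. The motif, on either strand within 100 bp of the summit, was present in 55 of 284 shared peaks (19.4%, 15.2 to 24.4) and in 1426 of 2976 GATA2-only peaks (47.9%, 46.1 to 49.7), a difference of -28.6 percentage points (95% interval -33.1 to -23.2, Fisher's exact test over 3 comparisons, adjusted p = 3.17e-21). It was present in 30.3% of all 6254 GATA2 peaks. In windows 2 kb to each side of the shared peaks, 145 of 568 held the motif (25.5%, 22.1 to 29.3), so the share at the summit was not above that of the surrounding sequence. For the GATA2-only peaks, the surrounding share was 30.2%. The median GC was 59.2% at the summits and 45.8% around them for the shared peaks, and 52.7% and 46.3% for the GATA2-only peaks. None of these comparisons was matched for GC. The shared peaks at promoters held it in 74 of 674 cases (11%), fewer than the shared peaks outside promoters (difference 8.39 percentage points, 95% interval 3.48 to 13.8, exact test, adjusted p = 0.000848).

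The difference was also present far from starts. There, 36 of 124 shared peaks (29%, 21.8 to 37.6) and 1291 of 2319 GATA2-only peaks (55.7%) held WGATAR (exact test, adjusted p = 1.26e-08). These 124 include 7 peaks placed above with the histone or small RNA genes. Just downstream of coding starts, WGATAR was present in 7 of 91 shared peaks (7.69%, 3.78 to 15) and in 60 of 462 GATA2-only peaks (13%, 10.2 to 16.4), with overlapping intervals. At least 2 motifs were found in 11 of the 284 shared peaks (3.87%) and in 536 GATA2-only peaks (18%), beside 9.55% of all GATA2 peaks. GATA factors and the basic helix-loop-helix protein TAL1 together bind a composite of an E-box (CANNTG) followed by WGATAR with 6 to 14 bases between them. It was found in 1 of 284 shared peaks (0.352%, 0.0622 to 1.97) and in 174 of 2976 GATA2-only peaks (5.85%, 5.06 to 6.75), beside 3.01% of all. Both counts were made over peaks with or without WGATAR, so they are not independent of the lower WGATAR share. Among the motifs that were present, AGATAA made up 29 of 67 motifs in the shared peaks (43.3%) and 905 of 2112 in the GATA2-only peaks (42.9%).

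**Figure D3:**
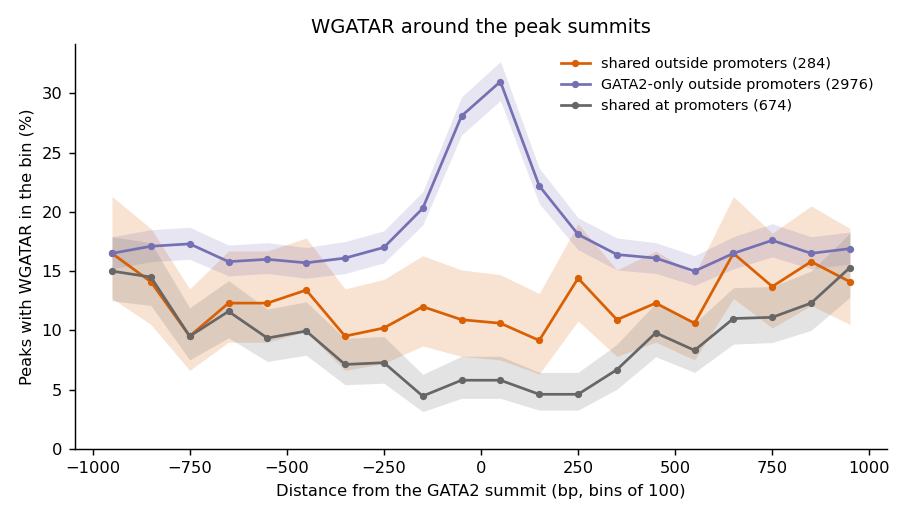
Share of peaks (%) with WGATAR in each bin of 100 bp, by distance from the GATA2 summit (bp), for the 284 shared peaks outside promoters (orange), the 2976 GATA2-only peaks outside promoters (purple) and the 674 shared peaks at promoters (grey), with shaded Wilson 95% intervals. The GATA2-only line reaches 31% beside the summit, whereas the shared line runs at 10.6% to 10.9% there and at 9.15% to 16.5% in the other 18 bins.

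Because motif content differed with peak height, the comparison was repeated by height. Height was the pileup, or read depth at the summit. Far from starts, WGATAR was present in 3 of 22 shared peaks of 9 to 14 reads (13.6%, 4.75 to 33.3) and in 531 of 1168 GATA2-only peaks (45.5%, 42.6 to 48.3). At 15 to 19 reads the shares were 21.9% (11 to 38.8, 7 of 32) and 60% (56.1 to 63.9). At 20 to 29 reads they were 24.3% (13.4 to 40.1, 9 of 37) and 67.5% (62.6 to 72). At 30 reads or more, 17 of 33 shared peaks (51.5%, 35.2 to 67.5) and 138 of 162 GATA2-only peaks (85.2%, 78.9 to 89.8) held the motif. The intervals of the classes did not overlap in any of the 4 bins, and the highest shared peaks had the motif most often. Over all GATA2 peaks far from starts, the shares in the 4 bins were 44%, 57%, 63.3% and 79.2%.

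**Figure D4:**
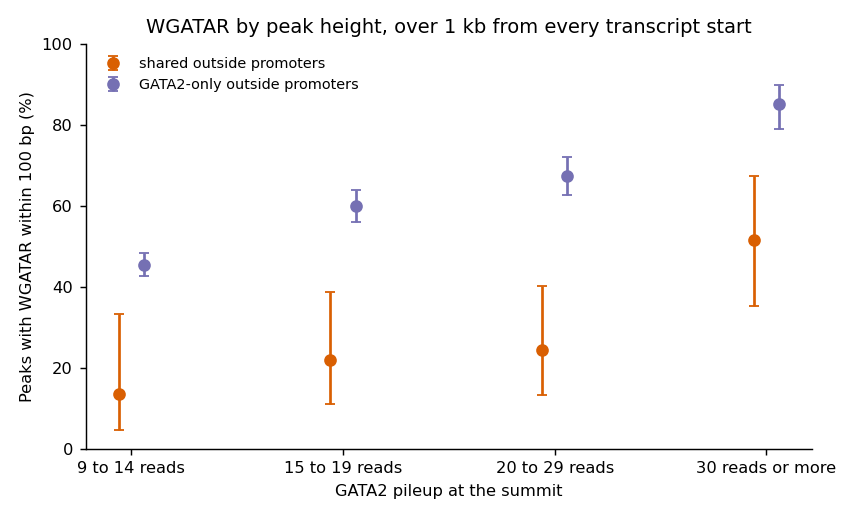
Share of peaks (%) with WGATAR within 100 bp of the summit by GATA2 pileup, for peaks over 1 kb from every transcript start, with Wilson 95% intervals. In each of the 4 bins the shared peaks (orange) lie below the GATA2-only peaks (purple), from 13.6% against 45.5% at 9 to 14 reads to 51.5% against 85.2% at 30 reads or more.

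The other motifs searched within 100 bp of the summit on both strands, each counted without regard to overlap with the others, were also compared (Fisher's exact test, adjusted over 7 motifs). GGGCGG, the GC box bound by SP and KLF factors, was more frequent in the shared peaks (107 of 284, 37.7%) than in the GATA2-only peaks (17.5%, exact test, adjusted p = 2.35e-13), and its share of all GATA2 peaks was 39.2%. TGACGTCA, the cAMP response element, was found in 7 shared peaks (2.46%) and 16 GATA2-only peaks (0.538%, exact test, adjusted p = 0.00447, 1.17% of all). TGTGGT, bound by RUNX factors, was present in 15.8% and 24.3% (exact test, adjusted p = 0.0026), and the share of the shared peaks was close to the 16.2% of all GATA2 peaks. GGAAGT, bound by ETS factors, was present in 16.2% and 23.5% (exact test, adjusted p = 0.00679, 19.7% of all). TGANTCA, bound by AP-1 and NF-E2, was present in 4.58% and 10.2% (exact test, adjusted p = 0.0026, 6.33% of all). For CCAAT, bound by NF-Y, the shares were 21.8% and 19.2% (25.2% of all), and the difference of 2.68 percentage points had an interval of -1.97 to 8.02 (exact test, adjusted p = 0.317). For TTGCNNAA, bound by C/EBP factors, the shares were 5.99% and 7.39% (5.76% of all), and the difference of -1.41 points had an interval of -3.84 to 2.1 (exact test, adjusted p = 0.472).

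Peak heights are given next as a description, since the overlap that chose the members rests on them. The GATA2 pileup of the 284 peaks had a median of 21 reads (quartiles 16 and 29.2, range 9 to 166), and the overlapped 9aa-Ins peaks had a median of 14 reads (quartiles 12 and 19, range 9 to 132). With a background of 0.464 reads for GATA2 and 0.455 for 9aa-Ins, the pileups were set side by side without scaling. GATA2-only peaks outside promoters had a median of 14 reads (quartiles 12 and 18). The median width was 573 bp for the shared peaks and 316 bp for the GATA2-only peaks. The smallest overlap between a member and its 9aa-Ins peak was 8 bp, at a peak of 10 reads near Sirt4, and the GATA2-only peak closest to a 9aa-Ins peak missed it by 11 bp, at a peak of 11 reads in the region of Vav1. Both genes are named for their place at this limit and were chosen after their values were seen. The summits lay within 100 bp of each other in 162 members, and in 252 the 9aa-Ins summit fell inside the GATA2 peak.

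The 9aa-Ins pileup relative to GATA2 is described here for these 252 members by position class, with no test, since both pileups decided membership, and the ranges of the classes overlapped. The median ratio was 0.688 (range 0.176 to 1.83). A peak had to reach 9 reads in both lists, so low ratios were possible only at high GATA2 peaks. In 183 members the exact 95% interval of the ratio, which covers counting error only, included 1, in 63 it lay below 1, and in 6 above 1. All 6 lay beside histone genes (3) or small RNA genes (3). No such counts were made for the shared peaks at promoters, so these describe the members only. The 10 histone members had a median ratio of 1.43 (0.857 to 1.83), and 9aa-Ins had more reads in 8 of them. The 36 small RNA members had a median of 0.789 (0.405 to 1.72), with more 9aa-Ins reads in 12. The median was 0.692 (0.258 to 1.4) for the 85 members downstream of coding starts and 0.6 (0.176 to 1.23) for the 102 far from starts, of which 38 had an interval below 1. Members with WGATAR had a median ratio of 0.53 (48 members), and those without it 0.714 (204 members).

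**Figure D5:**
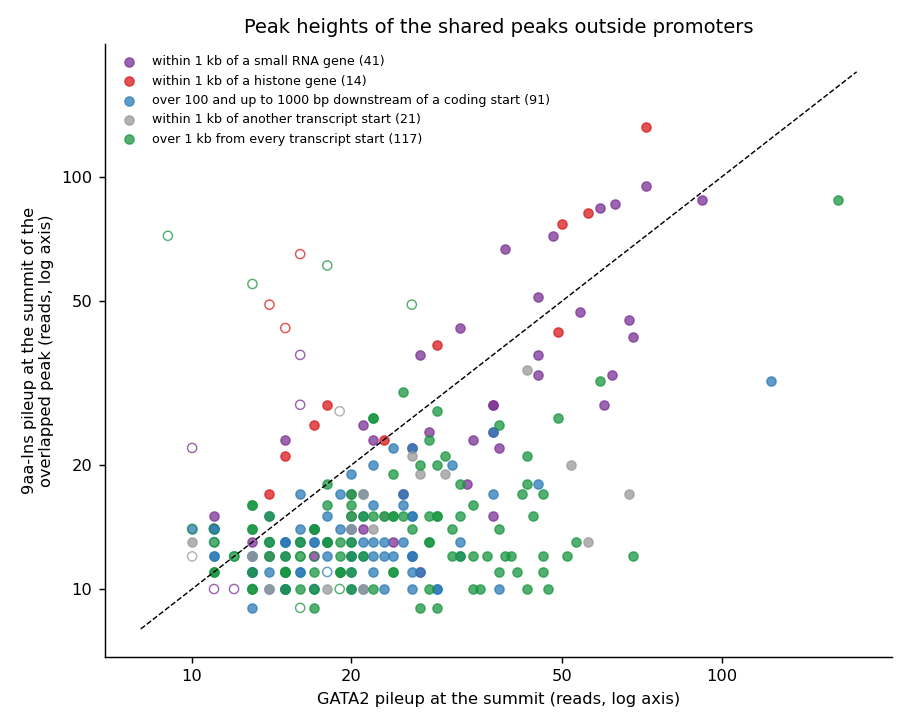
GATA2 pileup at the summit (reads, log axis) against the pileup of the overlapped 9aa-Ins peak (reads, log axis) for the 284 shared peaks, coloured by position class; filled points (252) have the 9aa-Ins summit inside the GATA2 peak, open points do not, and the dashed line marks equal pileups. Above the line lie 12 of 14 histone, 15 of 41 small RNA, 9 of 91 downstream, 3 of 21 other-start and 15 of 117 far members. Among filled points the counts are 8 of 10, 12 of 36, 7 of 85, 1 of 19 and 9 of 102, in the same order.

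The highest 9aa-Ins pileup of all members lay at a histone gene on chromosome 13, and the 12 highest held 4 histone and 6 small RNA members. These genes make the core and linker histones during S phase, and their transcripts are not polyadenylated. At Hist1h1d, a linker histone gene (ENSMUSG00000052565.7, chr13:23553262-23560686, plus strand), the member at chr13:23554942-23556567 had 72 reads with GATA2 and 132 with 9aa-Ins, a ratio of 1.83 (interval 1.37 to 2.48). Its summit lay in the exon, 1887 bp downstream of the annotated start. At Hist1h1c, also a linker histone gene, the values were 56 and 82 reads (1.46, 1.03 to 2.1), with the summit 972 bp downstream of the start. At Hist1h1b, they were 50 and 77 reads (1.54, 1.06 to 2.24), and the summit lay past the end of the gene, 950 bp downstream of its start. These 3 members were named for their 9aa-Ins pileup, so nothing is read from its being the higher of each pair. At Hist1h3d, which encodes a core histone, 16 reads with GATA2 overlapped a 9aa-Ins peak of 65 reads whose summit lay 1065 bp away, outside the GATA2 peak. Across the 14 histone members, GATA2 pileups ran from 11 to 72 reads and 9aa-Ins pileups from 14 to 132 reads. WGATAR was present in 2 of the 14, and 12 of them lay on chromosome 13.

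Genes of small noncoding RNAs accounted for 7 of the 12 members with the highest GATA2 pileup. Among such genes are those of the U RNAs of the spliceosome and of the small nucleolar RNAs that guide the processing of ribosomal RNA. Of the 41 members, 24 lay near snRNA genes, 14 near snoRNA genes, 3 near rRNA genes and 2 near genes annotated as misc_RNA, with some near more than 1 kind. Near Rnu2-10, a gene of U2 RNA on chromosome 11, the member at chr11:101657750-101660054 had 92 reads with GATA2 and 88 with 9aa-Ins (0.957, 0.706 to 1.3), and its summit, whose sequence is printed above, lay 330 bp from the start of the gene. A row of such genes lies inside introns of Tex14, a germ cell gene on the same chromosome (ENSMUSG00000010342.16), and 10 small RNA members fell there. Next to Rnu3b1, a gene of the U3 small nucleolar RNA, the values were 72 reads with GATA2 and 95 with 9aa-Ins (1.32, 0.961 to 1.82). Next to Rnu3b4 they were 59 and 84 reads (1.42, 1.01 to 2.02), and next to Rnu3b3 48 and 72 reads (1.5, 1.03 to 2.21). At Rnu1a1, a gene of U1 RNA, they were 39 and 67 reads (1.72, 1.14 to 2.62), the highest ratio among the small RNA members with the 9aa-Ins summit inside the peak. These 4 members were also named for their 9aa-Ins pileup, which favours ratios above 1.

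Other small RNA members were named for their GATA2 pileup, which favours ratios below 1. In the noncoding gene D230017M19Rik on chromosome 1, a member beside the snRNA gene Gm25939 had 68 reads with GATA2 and 41 with 9aa-Ins (0.603, 0.399 to 0.901). A member 37 bp from the start of D230017M19Rik itself had 67 and 45 reads (0.672, 0.45 to 0.995). Beside Gm23444 near Slfn14, the values were 60 and 28 reads (0.467, 0.287 to 0.742). At the rRNA gene CT010467.1 on chromosome 17, they were 62 and 33 reads (0.532, 0.338 to 0.825). At CT010467.1, 73.7% of the words around the summit were repeated elsewhere in the genome, so the placement of reads there is uncertain. The same held for the highest member of all, in an exon of Lars2, the mitochondrial leucyl-tRNA synthetase gene on chromosome 9, with 166 reads for GATA2, 88 for 9aa-Ins (0.53, 0.405 to 0.691) and 63.7% repeated words. It also held for a member in an intron of Zc3h7a on chromosome 16, 13 bp from the miRNA gene Gm23935, with 67 and 17 reads and 86% repeated words.

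Far from starts and outside repeated sequence, the 12 members with the highest GATA2 pileup ran from 43 to 68 reads. Their 9aa-Ins pileups ran from 10 to 32 reads, and 8 of the 12 held WGATAR. Since they were picked by their GATA2 pileup, nothing is read from its being the higher value of each pair. The highest lay 4.82 kb upstream of Hdgf, which encodes a growth factor (ENSMUSG00000004897.16, chr3:87906321-87916132, plus strand), with 68 reads for GATA2 and 12 for 9aa-Ins. Its ratio of 0.176 (0.0869 to 0.329) was the lowest of all members, and the 2 motifs in its printed sequence lie before the summit. Downstream of Cebpe, which encodes the C/EBP factor of late granulocyte maturation (ENSMUSG00000052435.7, chr14:54710360-54712174, minus strand), an intergenic member 6.2 kb from the start had 47 and 10 reads (0.213, 0.0959 to 0.427) and 2 motifs. Upstream of Zfp36, which encodes an RNA-binding protein that promotes mRNA decay, a member at 2.94 kb had 46 and 12 reads (0.261, 0.126 to 0.5) and 3 motifs. These 3 members, all within 10 kb of a coding start, had at least 2 motifs and at most 12 reads with 9aa-Ins. They were grouped after their values were seen. Members without a motif had similar 9aa-Ins counts near Adgrg3, Cd47 and Atxn1 (12, 11 and 10 reads) and a higher one near Rpp21 (32 reads).

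The other members of this group were spread over introns and intergenic sequence. Between genes, 28.5 kb from the start of Ap1m1, which encodes a subunit of a clathrin adaptor, the counts were 53 reads with GATA2 and 13 with 9aa-Ins (0.245, 0.123 to 0.456) with 1 motif. A member 56.8 kb from the start of Rbx1, a subunit of cullin ubiquitin ligases, had 46 and 17 reads (0.37, 0.199 to 0.657) with 1 motif. In an intron of Mapkapk3, a kinase gene, the values were 44 and 15 reads (0.341, 0.176 to 0.624), and in an intron of Zmiz1, a transcriptional coregulator gene, 43 and 18 reads (0.419, 0.227 to 0.741), each with 1 motif. Of the 12 members, 4 had no motif within 100 bp. In an intron of Adgrg1, 4.97 kb upstream of Adgrg3, both genes of adhesion receptors, 51 and 12 reads were found (0.235, 0.114 to 0.447). Downstream of Cd47, the gene of a surface protein that restrains phagocytosis, they were 46 and 11 reads (0.239, 0.112 to 0.469), and in an intron of Atxn1 43 and 10 reads (0.233, 0.104 to 0.47). The last, 26.6 kb from the start of Rpp21, a subunit of ribonuclease P, had 59 and 32 reads (0.542, 0.341 to 0.848) in sequence of 73.1% GC.

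Genes of hematopoietic regulators near the members came from a list of 26 transcription factors of progenitors. A member lay within 100 kb of the gene start for 7 of the 26 (26.9%), compared with 1158 of all 21924 protein-coding genes (5.28%). A GATA2-only peak outside promoters lay within that distance for 20 of the 26 (76.9%) and for 29.9% of all genes. The highest of these members lay 113 bp downstream of the start of Lyl1, a basic helix-loop-helix factor of stem and progenitor cells (ENSMUSG00000034041.4, chr8:84701457-84704715, plus strand). At chr8:84701087-84702152, within an exon, it had 124 reads with GATA2 and 32 with 9aa-Ins (0.258, 0.169 to 0.383) and 1 motif. Both other members at Lyl1 had no motif: 40 and 12 reads were found at 2.33 kb (0.3, 0.143 to 0.583) and 18 and 18 reads at 3.92 kb (1, 0.491 to 2.04). The pileup of GATA2 thus spanned 18 to 124 reads over 3 neighbouring peaks, whereas that of 9aa-Ins spanned 12 to 32 reads.

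At Nfe2, the p45 subunit of NF-E2 in the megakaryocyte and erythroid lineages, 49 reads with GATA2 and 26 with 9aa-Ins (0.531, 0.317 to 0.871) covered a peak with 1 motif. This peak counts as far from starts, 3.02 kb upstream in the basic set, but lay 56 bp upstream of the outermost start of the gene in the annotation. In Fli1, which encodes an ETS factor, a member in the gene had 19 and 11 reads (0.579, 0.249 to 1.28). In Myb, which encodes a factor that sustains progenitor proliferation, the values were 16 and 13 reads (0.812, 0.36 to 1.8). At Cebpa, the C/EBP gene that drives granulocyte commitment, 164 bp downstream of the gene start, they were 13 and 11 reads (0.846, 0.343 to 2.05). At Kit, the receptor of stem cell factor, the nearest member was 156 kb from the start and had 10 and 14 reads (1.4, 0.578 to 3.52), with an overlap of 36 bp. None of these 4 members held WGATAR, and none had counts that differed beyond counting error.

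Within 100 kb of the start of Mpo, the gene of myeloperoxidase on chromosome 11 (ENSMUSG00000009350.13, chr11:87793581-87804413, plus strand), lay 6 members, none of them inside the gene. Upstream of Mpo, 5 formed a run of 9.46 kb at chr11:87749236-87758696, around the noncoding gene Mir142hg and with Tspoap1 as the nearest coding start (GATA2 pileups 19 to 43 reads, 9aa-Ins pileups 15 to 49 reads, 1 of 5 with WGATAR). The sixth, 13.1 kb downstream of the Mpo start, lay past the end of Mpo in an exon of Lpo and had 13 reads with GATA2 at chr11:87806490-87806851. It lay inside the widest 9aa-Ins peak that a member overlapped, 5548 bp at chr11:87803265-87808812 with 55 reads, whose summit was 1375 bp away. Of 9 matched neutrophil granule genes, Mpo and Prtn3 had a member within 100 kb (22.2%, beside 5.28% of all protein-coding genes), and 6 of the 9 had a GATA2-only peak (66.7%, beside 29.9%). For Prtn3 the member lay 94.1 kb upstream, with 34 and 16 reads and 1 motif.

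Genes that the study found regulated by RNA-seq in these cells were counted in the same way. Only symbols that matched a protein-coding gene of the annotation were counted, which left 126 of 144 genes activated by both proteins, 290 of 381 repressed by both, 118 of 132 activated by 9aa-Ins alone and 228 of 282 repressed by it alone. Of the genes activated by both proteins, 9 of 126 had a member within 100 kb (7.14%), and of the genes repressed by both, 12 of 290 (4.14%). Of the genes regulated by 9aa-Ins alone, the counts were 11 of 118 activated genes (9.32%) and 14 of 228 repressed genes (6.14%). Each share is read beside the 5.28% of all protein-coding genes and was not tested. For GATA2-only peaks outside promoters, the shares of the same 4 lists were 44.4%, 26.9%, 38.1% and 46.5%, beside 29.9% of all protein-coding genes. The study names genes as activated or as repressed by GATA2. Some of the activated genes are shown there with GATA2 but not the variant in the same anti-HA data. Counts for the activated list were thus partly fixed by the choice of genes. Of its 9 genes, 0 had a member within 100 kb, too few genes to read beside 5.28%. A GATA2-only peak lay within that distance for 8 of the 9 (88.9%, beside 29.9% of all protein-coding genes). Among 25 genes named as repressed by GATA2, Vpreb3, a gene of B cell precursors, was the only gene with a member, 83 kb away. Among 15 ETS factors, Fli1 was the only one with a member. A GATA2-only peak lay within 100 kb for 3 of the 25 (12%) and 6 of the 15 (40%). Gata2 and Hoxb8, the genes carried by the retroviruses, had no member within 100 kb.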

How the data were processed

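Peak lists were analysed for the 2 anti-HA groups, GATA2 and 9aa-Ins. Per the labels, the authors aligned reads to mm10 with Bowtie2 and called peaks with MACS3 at a q-value of 1e-06. Each deposited list merged 2 replicates, so no value has an SD. The authors' caller gave each peak a −log10 q-value, a deposited score of 10 times that value cut to whole numbers, and a deposited fold enrichment, the ratio of pileup plus 1 to background plus 1 at the summit. No column (0) belonged to another sample.

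Pileups were recovered from the fold enrichment, and 100% came out whole in both lists (tolerance 0.02 of 1 read). Lists were overlapped by 1 bp and annotated with the GENCODE M21 basic transcripts on GRCm38. Fisher's exact test and intervals used scipy 1.17.1 in Python 3.11.15 after a check on simulated data. Members and gene lists were chosen with earlier results of these data known. The lists come from the text and supplementary tables of the study and from textbook knowledge. Named genes are those nearest to, or at, the 12 members highest in each list, far from starts and with WGATAR, and the list genes nearest to a member. Alternatives covered overlap, q-value, promoter definition, repeats, clustering and motif window. Read totals per library and anti-GATA2 libraries were not used here. The member at 1 listed gene is not reported here.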

Additional observations from a re-analysis of the deposited data

How the results depend on the processing

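No paired analysis was possible because replicates were merged in both lists, and for the same reason none could be left out. The member count of 284 fell to 173 with a reciprocal overlap of 50%, to 150 with promoters of 3 kb to each side and to 165 among peaks of 20 reads or more, a limit chosen after seeing the data. With promoters of 3 kb, the histone gene difference was 0.667 percentage points and no longer passed the test (exact test, adjusted p = 0.0882), and no peak just downstream of a coding start was left to compare. The intergenic difference, which did not pass the test, turned to 5.3 points with promoters of 3 kb (exact test, adjusted p = 0.262) and to 0.682 points at a q-value of 1e-10 (exact test, adjusted p = 0.874). Without peaks near histone and small RNA genes, chosen after seeing the data, it was -7.44 points and passed (exact test, adjusted p = 0.0343), and the repeated sequence difference was 1.17 points and did not (exact test, adjusted p = 0.0839). The WGATAR difference ran from -42.6 to -20.7 points over all settings, and far from starts from -35.6 to -19.8 points, always past the test. In all, 92 of 100 values under other settings kept the call and sign of the main result or stayed within 1.5 times its count. The comprehensive transcript set, added after seeing the data, left 263 members. Low pileups limit the ratios of single members: at 10 to 20 reads most intervals included 1. Without replicates or a library lacking the HA tag, neither the spread between samples nor the background of the assay could be set beside these values.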
